A study of Mus musculus with 16 samples.

Results

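In translating ribosome affinity purification (TRAP), mRNA is pulled down with tagged ribosomes, and an immunoprecipitate (IP) from tissue without the tag measures what the beads and the antibody recover on their own. The comparison described here is the enrichment that depends on the HA tag, that is, the log2 ratio of IP to input in retinas with HA-tagged ribosomes (tagged) minus the log2 ratio of IP to input in control retinas without the tag (untagged). It was computed from 8 of the 16 libraries of the study, with 2 replicates in each of 4 groups: HA IP and input from Opn4-Cre; Rpl22-HA mice, and HA IP and input from Opn4-Cre mice that carry no tagged ribosomal protein. All of these mice carried Opn4-Cre on a mixed B6/129 background, and all were P60 adults. In each lysate the retinas of 1 animal were combined, a small aliquot was kept as input and the rest went to the IP, while the labels call every library a pool of male and female mice. For every gene symbol the transcript of highest mean count over the 8 libraries was kept, and only genes on autosomes were counted. Of 23434 autosomal gene symbols with a count, 13584 passed a filter on low counts and were tested. There was no further selection on the level in the IPs, but the transcript choice and the filter both used the IPs. A gene could therefore pass through its counts in the IPs of 1 genotype alone.

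Cre recombinase switches on the HA-tagged form of RPL22, a protein of the large ribosomal subunit, and Cre is made here from the gene of melanopsin. Melanopsin is the photopigment of intrinsically photosensitive retinal ganglion cells (ipRGCs), which drive circadian photoentrainment and the pupillary light reflex and carry light signals to the brain through the optic nerve. The study's supplement describes HA in cones of this line as well as in RGCs, so that the tag was not restricted to ipRGCs, the cell type that the labels give for the tagged IPs. An IP over input from tagged tissue alone mixes RNA on tagged ribosomes with RNA that sticks to beads. The subtraction is made on the log2 scale and compares the tagged ratio with the untagged ratio, gene by gene. It does not take an amount of bead-bound RNA out of the tagged IP. Each IP is placed on a relative scale, that of its own library total adjusted by a normalization factor. The amount of RNA recovered was therefore not measured, and fewer cells of a type cannot be told apart from less RNA per cell.

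Total counts ran from 10141659 to 14512132 in the IPs, from 8465626 to 8608939 in the tagged inputs, and were 2332612 and 7446108 in the untagged inputs, which held the least depth. Counts summed over 4 Y-linked genes were between 135 and 370 in the tagged libraries and between 0 and 7 in the untagged libraries, which goes against the labels of the latter. Genotype and sex cannot be told apart in this contrast. Rpl22 itself stood at 92.2 and 85.4 CPM (normalized read counts scaled to a common library size) in the tagged inputs and at 95.3 and 93.5 in the untagged inputs, and its HA-dependent log2 difference was -0.26 (SE 0.24, adjusted p = 0.407). The counts do not separate the tagged from the untagged Rpl22 transcript, so they do not check the label.

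Of the 13584 genes, 3235 (23.8%) were higher in the HA-dependent contrast and 2794 (20.6%) were lower at an adjusted p below 0.05 from edgeR's quasi-likelihood test, and 7555 were not called. The median HA-dependent log2 difference over all genes was -0.07, with quartiles at -0.98 and 0.89. In the tagged retinas alone, 3594 genes (26.5%) were higher and 1666 (12.3%) lower in the IP than in the input. In the untagged retinas, where no ribosome carried the tag, 4010 genes (29.5%) were higher and 3435 (25.3%) lower in the IP than in the input. The untagged IP thus had a profile of its own, with more called genes than the tagged IP. These terms share no library. Across them, 1219 genes were higher in both IPs, 743 were lower in both, 1032 were higher in the tagged IP and lower in the untagged IP, and 153 were lower in the tagged IP and higher in the untagged IP. IP over input in 1 lysate correlated with that in the other lysate of the same genotype at r = 0.846 (Rpl22-HA) and 0.804 (control), and with lysates of the other genotype at 0.166 to 0.334, across genes, which are not independent replicates. Both tagged lysates lay on the same side of both untagged lysates for 10136 of all genes tested (74.6%). Without the first tagged input the number of lower genes fell to 1840.

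**Figure D1:**
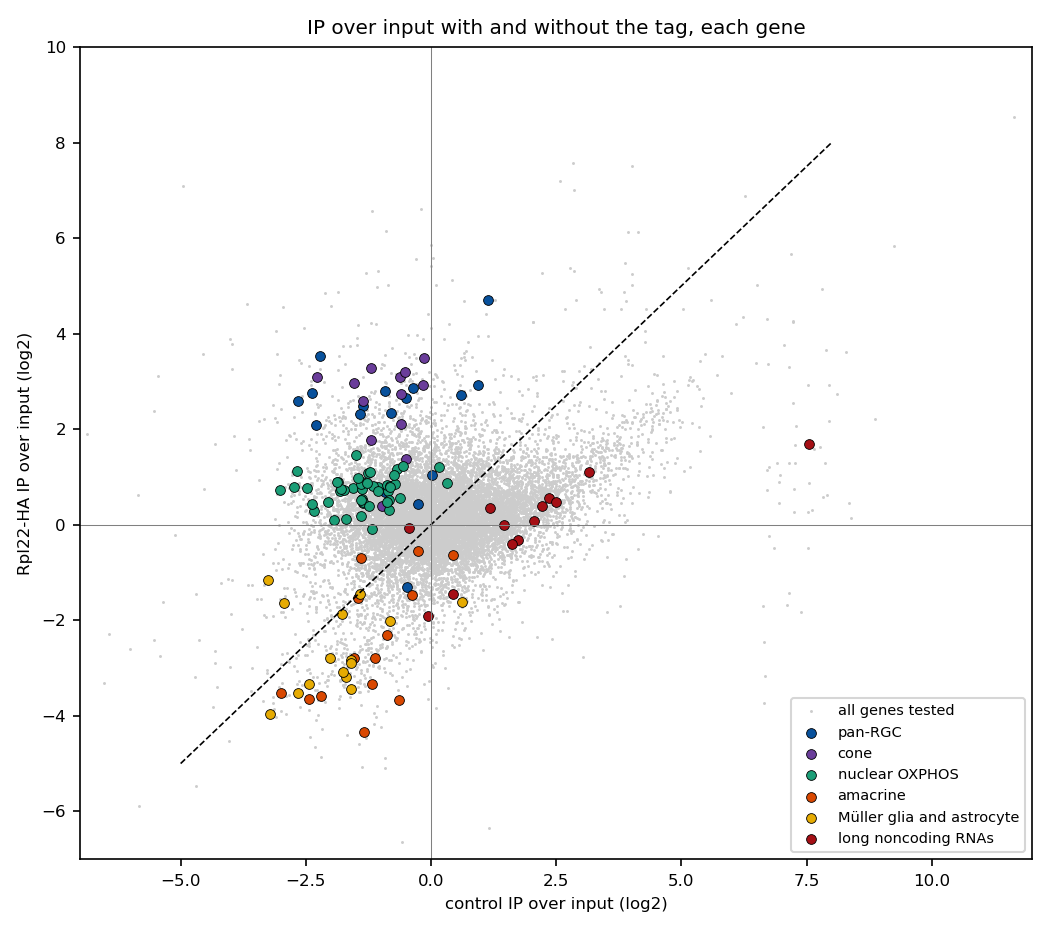
Each point is 1 of the 13584 genes, with the log2 ratio of IP to input in untagged (control) retinas on the x axis and in tagged (Rpl22-HA) retinas on the y axis, and 6 gene lists in color. Points above the dashed line of equality have a positive HA-dependent difference, and the pan-RGC, cone and nuclear OXPHOS genes lie above it with few exceptions, while most amacrine, Müller glia and long noncoding RNA genes lie below.

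Genes that mark ipRGCs included the largest difference among the named genes, and also calls that were lost when 1 library was left out. Tbx20, which encodes a T-box transcription factor, was at 28.8 and 31.6 CPM in the tagged IPs, 0.477 and 0.349 in the tagged inputs, 0.287 and 0.423 in the untagged IPs, and 0.818 and 0.641 in the untagged inputs. Both tagged IPs lay far above the other 6 libraries, which did not exceed 0.818 CPM. Its HA-dependent log2 difference was 7.04 (SE 0.89, adjusted p = 1.07e-05). Eomes, which encodes the transcription factor TBR2, stood at 56.8 and 50.7 CPM in the tagged IPs, 3.22 and 2.56 in their inputs, 0.956 and 1.27 in the untagged IPs, and 2.05 and 2.82 in the untagged inputs. Its difference was 5.41 (SE 0.47, adjusted p = 1.88e-07), and its level was lower in the untagged IPs than in the untagged inputs. Opn4, the melanopsin gene, stood at 35.5 and 36.1 CPM in the tagged IPs and at 1.19 and 1.51 in their inputs, a log2 ratio of 4.71. In the untagged retinas it stood at 1.34 and 5.78 CPM in the IPs and at 0.818 and 1.80 in the inputs, so that the groups overlapped there. The HA-dependent difference of Opn4 was 3.44 (SE 0.84, adjusted p = 0.00372). Without the second untagged input this call was lost (log2 2.52, adjusted p = 0.388), and over 20 alternative settings the adjusted p ran from 6.48e-07 to 0.388. Pou4f2, the gene of BRN3B, had a difference of 3.57 (SE 0.74, adjusted p = 0.00106). Its call was also lost without the second untagged input, although the difference was then 3.61. Adcyap1, the gene of the peptide PACAP that ipRGCs release, had a difference of 3.85 (SE 0.92, adjusted p = 0.00329), which also was lost without that library (adjusted p = 0.408, range from 7.08e-05).

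Of 12 ipRGC genes tested, 4 were higher (Tbx20, Eomes, Adcyap1 and Opn4), none was lower and the median was 1.00. This number is near the share of 23.8% over all genes, and without the second untagged input 2 were higher. Rasgrp1, an activator of Ras, had a difference of 0.99 that was not called. In the tagged IP over input 8 of the 12 ipRGC genes were higher and none lower, with a median of 1.25, against 26.5% higher over all genes. In the untagged IP over input 2 were higher and 1 lower, with a median of 0.23. Of 12 genes of melanopsin phototransduction, the cascade in which melanopsin acts through Gq proteins and phospholipase C on TRPC channels, 2 were higher and none lower, with a median of 0.26, which is a smaller share than the 23.8% over all genes. These were Opn4 and the kinase gene Prkcz (0.68, adjusted p = 0.0375), whose call was lost in 13 of 20 alternative settings, and the count was 0 without the second untagged input and 1 without any of 5 other libraries. The median in the tagged IP over input was 0.35 for this list and the median in the untagged IP over input was 0.35 as well. With the tag 5 of these 12 genes were higher in the IP than in the input and none lower. Without it 3 were higher and 1 lower.

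**Figure D2:**
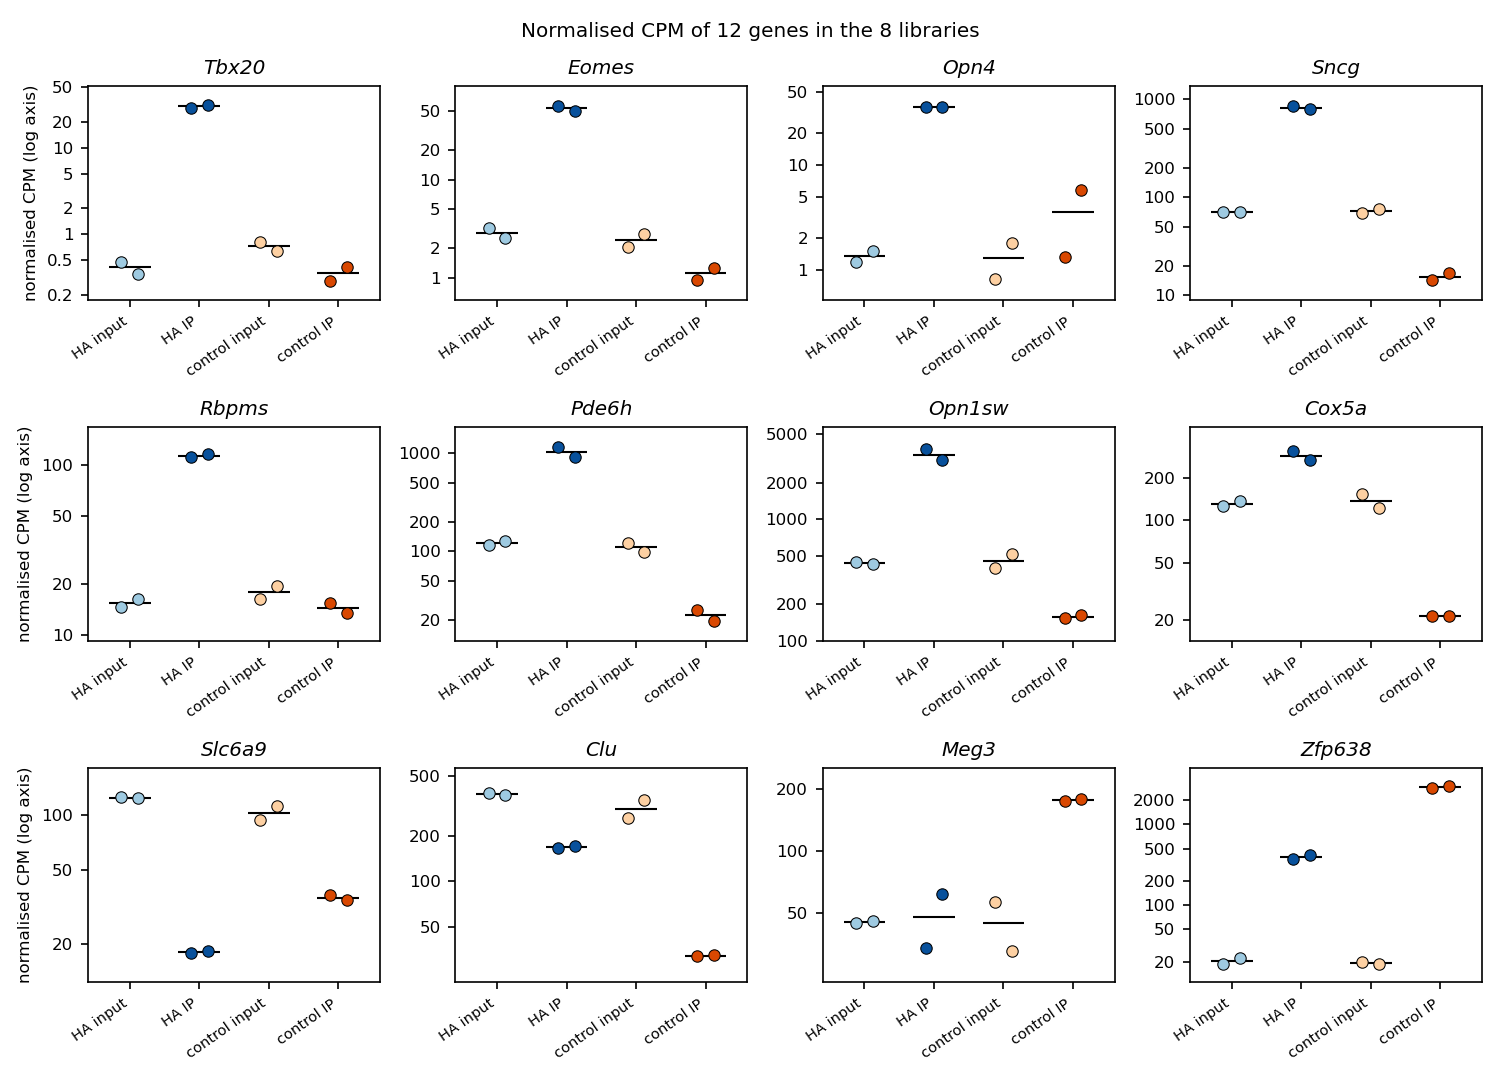
Normalized CPM (log axes) of 12 genes in each of the 8 libraries, 2 per group, with horizontal lines at the group means. Tbx20, Eomes, Opn4, Sncg, Rbpms, Pde6h, Opn1sw and Cox5a are highest in both tagged IPs, Slc6a9 is lowest there, Clu is lowest in the untagged IPs, and Meg3 and Zfp638 are highest in the untagged IPs.

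Genes shared by RGCs as a class were higher almost without exception. Of 17 pan-RGC genes tested, 16 were higher and none was lower, with a median of 3.22 against -0.07 over all genes. The exception, Pou4f3, had a difference of -0.81 that was not called. Sncg, which encodes gamma-synuclein, stood at 855 and 787 CPM in the tagged IPs, 71.2 and 71.0 in their inputs, 14.3 and 16.7 in the untagged IPs, and 68.3 and 75.6 in the untagged inputs. The inputs of both genotypes were alike, the tagged IPs were above them and the untagged IPs below. Its difference was 5.74 (SE 0.24, adjusted p = 3.26e-10). Rbpms, an RNA-binding protein used to label RGCs, stood at 111 and 115 CPM in the tagged IPs, between 13.4 and 19.5 in the other 6 libraries, and had a difference of 3.22 (SE 0.25, adjusted p = 6.40e-08). Its paralog Rbpms2 had a difference of 3.14 (SE 0.31). The list's median was 2.59 in the tagged IP over input and -0.80 in the untagged IP over input. The untagged IPs therefore held less of the RNA of 9 of these genes than their own inputs did, at an adjusted p below 0.05.

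The cytoskeleton of long axons showed the largest median of any list, 3.72, and 12 of its 13 genes were higher. These included Prph, the intermediate filament peripherin (5.87), Tubb3, a neuronal beta-tubulin (5.25), Stmn3 and Stmn2, which are microtubule regulators (4.73 and 3.73), and the neurofilament subunits Nefm (3.72), Nefl (2.12) and Nefh (1.97). Map1b, at 0.24, was not called. Sncg, Tubb3, Stmn2, Nefm, Nefl and Nefh are in this list and in the pan-RGC list, so that the lists are not independent. Nefl and Nefh were also higher in the untagged IP over input, with log2 ratios of 0.60 and 0.94. Of 25 transcription factors of RGCs, which include Eomes of the ipRGC list, 13 were higher and none was lower, with a median of 1.60. Among them Irx2, Irx3, Irx5 and Irx6, of the Iroquois family, had differences of 4.48, 3.51, 2.03 and 3.39, Ebf1 2.40 and Isl2 1.77. Satb1 (-0.60), Foxp1 (-0.15) and Tbr1 (-0.98), which mark other RGC types, were not called. Of 5 genes of alpha RGCs, a class of large ganglion cells, 4 were higher, led by Spp1 (osteopontin, 6.36) and Scn4b (4.48).

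Cone genes were higher as uniformly as RGC genes. All 13 cone genes tested were higher, with a median of 3.64, a median of 2.92 in the tagged IP over input and a median of -0.61 in the untagged IP over input. Pde6h, an inhibitory subunit of cone phosphodiesterase, stood at 1161 and 918 CPM in the tagged IPs, 117 and 127 in their inputs, 25.5 and 19.5 in the untagged IPs, and 122 and 97.6 in the untagged inputs. Its difference was 5.37 (SE 0.27, adjusted p = 7.88e-10). Opn1sw, the short-wavelength cone opsin, stood at 3765 and 3047 CPM in the tagged IPs and between 152 and 515 in the other 6 libraries, with a difference of 4.50 (SE 0.25, adjusted p = 1.93e-09). The rest of the cone cascade followed, with Gngt2 and Gnat2, subunits of cone transducin, at 4.48 and 3.71, Pde6c, the catalytic phosphodiesterase subunit, at 3.72, and Cnga3 and Cngb3, the cone cyclic nucleotide-gated channel, at 3.64 and 3.34. Thrb, the thyroid hormone receptor that controls opsin choice, had the lowest difference of the list, 1.37. The summed level of the 13 genes was 8278 and 6704 CPM in the tagged IPs, where the 17 pan-RGC genes summed to 5846 and 5397 and the 12 ipRGC genes to 242 and 227. In the untagged IPs the cone genes summed to 486 and 506 CPM.

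**Figure D3:**
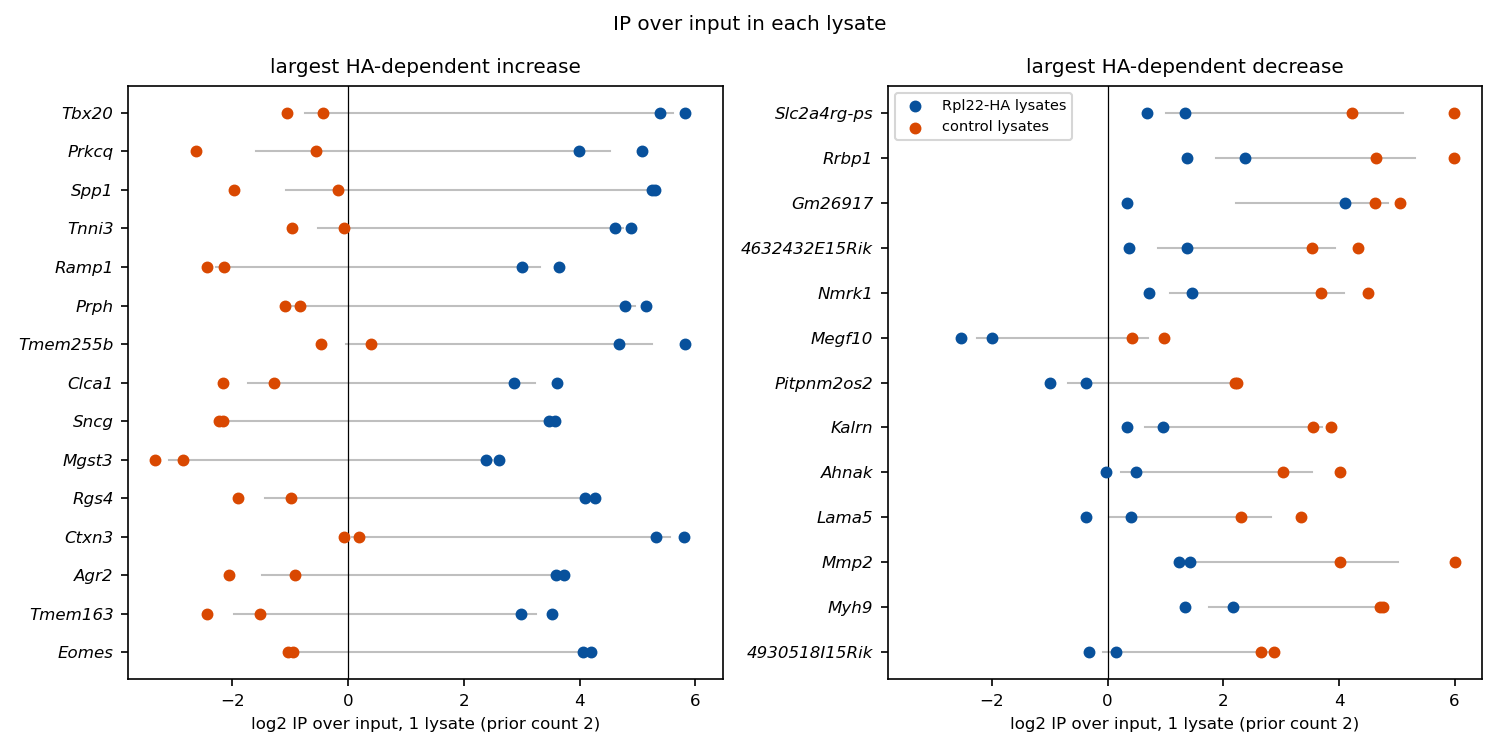
The log2 ratio of IP to input in each of the 2 tagged lysates and each of the 2 untagged lysates, for the 15 genes with the largest HA-dependent increase (left) and 13 of the 15 with the largest decrease (right, those with over 3 counts in every group). Gray lines join the means of the genotypes. On the left the untagged lysates lie near or below 0, and on the right most tagged lysates lie near or above 0 with the untagged lysates farther above.

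Among the 15 genes with the largest increase, Prkcq, the kinase PKC theta, had a difference of 6.57 (SE 0.65, adjusted p = 7.74e-07), with 67.1 and 56.6 CPM in the tagged IPs and at most 3.37 elsewhere. Tnni3, a cardiac troponin subunit, had a difference of 6.06 (SE 0.78), and its call was lost without the second untagged input (adjusted p = 0.0911, range from 2.13e-10 over the settings). Ramp1, a subunit of the receptor for calcitonin gene-related peptide, was at 5.98. Mgst3, a microsomal glutathione transferase, was higher than input with the tag and lower without it, with 111 and 103 CPM in the tagged IPs, 21.1 and 16.7 in their inputs, 27.0 and 20.7 in the untagged inputs and 2.48 and 2.68 in the untagged IPs (difference 5.65, SE 0.29). Rgs4, which shortens G protein signals, was at 648 and 629 CPM in the tagged IPs and between 8.39 and 36.7 elsewhere (5.65, SE 0.29). In Ctxn3, a small membrane protein, the tagged retinas carried the difference. It had 559 and 480 CPM in the tagged IPs, 9.78 and 11.7 in their inputs, 14.5 and 12.8 in the untagged IPs and 12.7 and 13.5 in the untagged inputs, so that its difference of 5.54 (SE 0.28) came from the tagged term of 5.59, while the untagged term was 0.05.

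Of 8 sodium channel genes, 4 were higher, among them the auxiliary beta subunits Scn4b (4.48), Scn2b (2.59) and Scn3b (2.35). The pore-forming subunits Scn1a (0.57), Scn2a1 (0.10), Scn8a (-0.66) and Scn3a (-0.70) were not called. All 8 were higher in the tagged IP over input, and these pore-forming subunits were the 4 that were also higher in the untagged IP over input, with log2 ratios from 1.60 to 2.29. Calcium channels did not divide that way. Cacnb3 (2.49), Cacna2d2 (1.50) and Cacnb4 (1.07), which are auxiliary subunits, were higher. Of the 16 genes 7 were lower, among them the pore-forming Cacna1e (-2.20), Cacna1i (-1.93), Cacna1d (-1.79) and Cacna1h (-1.43), but also the auxiliary Cacna2d4 (-1.63) and Cacna2d3 (-0.96). In the untagged IP over input 12 of the 16 were higher. The median transcript length of the calcium channel genes tested was 7982.5 bases. Of 18 potassium channel genes 12 were higher, among them Kcnip4 (3.24), Kcng4 (2.65) and Kcna2 (1.87), and 1 was lower. Beside these counts, 23.8% of all genes were higher and 20.6% lower. Among transcripts of at least 4599 bases, the longest of 4 equal classes, 12.2% were higher and 35.9% lower. That class held 6 of the 8 sodium, 12 of the 16 calcium and 10 of the 18 potassium channel genes.

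Of 8 nicotinic receptor subunits 5 were higher and 1, Chrna2 (-2.30), was lower. Chrna6 stood at 172 and 158 CPM in the tagged IPs, 22.8 and 28.0 in their inputs, and 10.7 and 11.3 in the untagged IPs (difference 3.95, SE 0.27, adjusted p = 1.56e-08), and Chrna4 (3.11), Chrnb3 (2.48) and Chrnb2 (1.57) followed, while the fifth called gene, Chrnb4, had too few counts in 1 group for a fold. Of 13 calcium-binding proteins 11 were higher and Necab1 (-1.82) was lower. Pvalb, which encodes parvalbumin, was at 157 and 131 CPM in the tagged IPs and between 2.26 and 10.9 elsewhere (5.36, SE 0.33), and Calb1 and Calb2, for calbindin and calretinin, were at 3.86 and 3.66. Calb2 is also made by amacrine cells, and Calb1 is the called member of the 3 horizontal cell genes tested.

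Neuropeptide genes had a median difference of 2.04, with 8 of 14 higher and 1, Vip (-1.89), lower. Here the untagged term carried the difference for most. The list's median was -0.30 in the tagged IP over input and -2.74 in the untagged IP over input, and 12 of the 14 were lower in the untagged IP. Chga, chromogranin A, stood at 124 and 97.3 CPM in the tagged IPs and 97.5 and 107 in their inputs, which overlap, and at 14.0 and 9.37 in the untagged IPs against 104 and 97.1 in their inputs (difference 3.22, SE 0.27, adjusted p = 1.43e-07). Scg2 and Chgb, further granins of dense-core vesicles, had differences of 2.62 and 2.28. The tagged IP over input was not called for Scg2 and was lower for Chgb, with a log2 ratio of -0.50. Tac1, the substance P precursor, was an exception, with 86.1 and 90.4 CPM in the tagged IPs against 22.9 and 21.8 in their inputs (3.13, SE 0.24). Penk, the precursor of enkephalins, was called lower in both IPs, at 1.71 and 2.05 CPM with the tag against 21.4 and 21.3, and at 0.478 and 0.705 without it against 4.91 and 8.85, and its HA-dependent difference of 0.11 (SE 0.44) was not called.

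Nuclear genes of oxidative phosphorylation (OXPHOS), which encode the mitochondrial respiratory chain and ATP synthase, moved together. Of 48 tested, 47 were higher and none was lower, with a median of 1.95, and the count stayed between 47 and 48 when each library was left out in turn. Cox5a, a subunit of cytochrome c oxidase, stood at 305 and 266 CPM in the tagged IPs, 126 and 136 in their inputs, 21.2 and 21.3 in the untagged IPs, and 153 and 122 in the untagged inputs (difference 3.80, SE 0.24, adjusted p = 5.92e-09). Cox6a1, Cox6b1 and Atp5g1 were at 3.74, 3.53 and 2.97. The summed level of the 48 genes was 11091 and 10048 CPM in the tagged IPs, between 6519 and 6752 in the 4 inputs, and 2506 and 2475 in the untagged IPs. The larger part of the difference came from the untagged term, with a median of -1.36 and 46 of 48 genes lower, and the tagged term had a median of 0.77 with 39 of 48 higher.

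Transcript length moved with these calls. In the shortest of 4 equal classes of transcripts, from 111 to 1923 bases, 37.1% of genes were higher and 10.5% lower, with a median difference of 0.50. In the longest class, from 4599 to 123179 bases, 12.2% were higher and 35.9% lower, with a median of -0.58. The median ratio of IP to input changed along the classes from -0.35 to 0.64 in the untagged retinas, and was 0.36, 0.09, 0.08 and 0.28 in the tagged retinas. GC content moved with the calls to a lesser degree, with 16.7% of genes higher in the lowest of 4 classes of GC and 29.7% in the highest. The OXPHOS genes were short, with a median of 983 bases, and 42 lay in the shortest class, where all 42 were higher. Cytosolic ribosomal protein genes were as short, with a median of 855.5 bases, yet of 65 in the shortest class 18 were higher and 2 lower. Over all 76 the median was 0.36 with 18 higher, near the share of 23.8% over all genes, and 4 lower, against 20.6%. The 18 fell to 10 when the first replicate of any of the 4 groups was left out. Rplp2 (1.74) and Rplp1 (1.32), proteins of the ribosomal stalk, were higher and Rpl14 (-1.53) was lower. In the tagged IP over input Rplp2 was called lower (log2 ratio -0.81), Rplp1 was not called (-0.21) and Rpl14 was called higher (0.91). Their ratios in the untagged IP over input were -2.55, -1.54 and 2.44. Several ribosomal protein genes have near-identical copies elsewhere in the genome, so that their counts are uncertain. The part of transcript length in the other results was not tested. Of the pan-RGC genes 6 of 6 were higher in the shortest class, 4 of 5 in the second and 6 of 6 in the third, and none lay in the longest class, where the share of lower calls was the largest. Of the cone genes 3 lay in the longest class, and all 3 were higher.

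**Figure D4:**
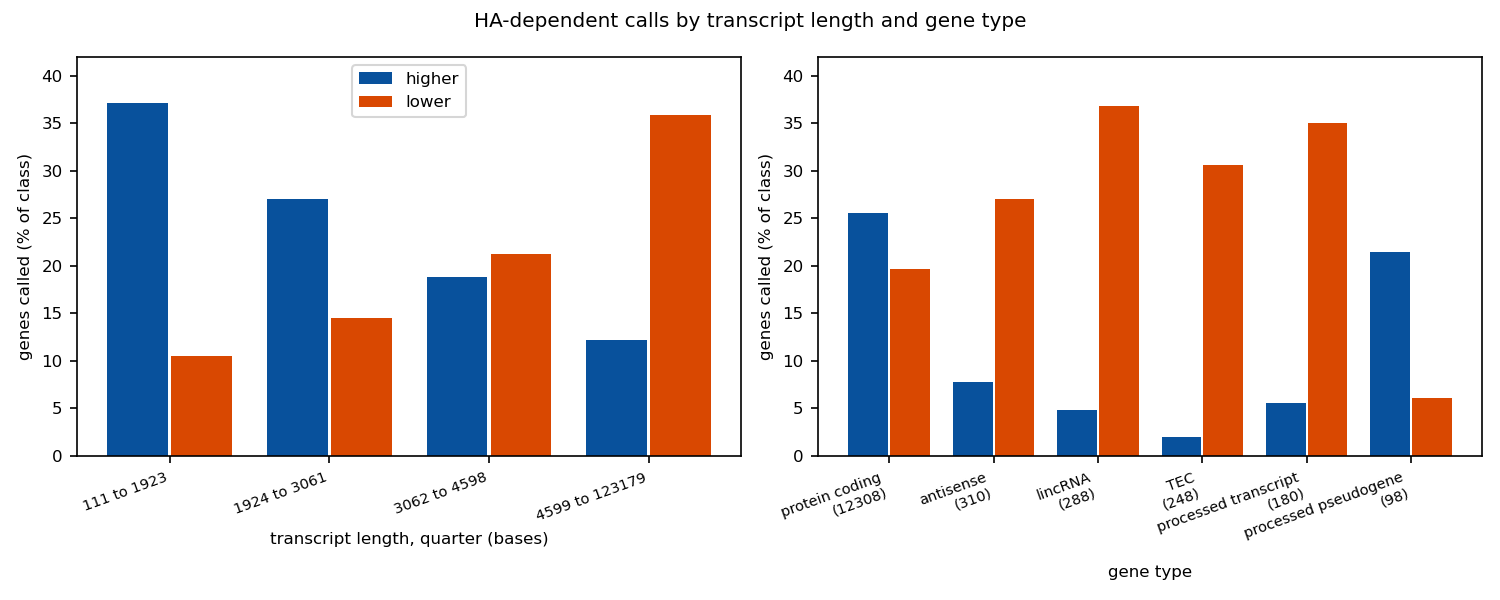
The share of genes called higher (blue) or lower (orange) in the HA-dependent contrast, in % of each class, by class of transcript length in bases (left) and by GENCODE gene type with at least 50 genes tested (right, number of genes in brackets). The share called higher falls from 37.1% to 12.2% from the shortest to the longest class, and in lincRNA genes 4.86% are higher and 36.8% lower.

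Heat shock genes had a median of 1.78, with 9 of 11 higher and none lower. They were led by Hspb1 (3.72, SE 0.94), which had few counts, and by the chaperone genes Hspa8 (2.83) and Hsp90ab1 (2.61). The list's median was 0.49 in the tagged IP over input, where 5 were higher and 1 lower. In the untagged IP over input the median was -1.32, and 10 of the 11 were lower. Of 27 translation factors 11 were higher and 2 lower, and 7 were higher without the first tagged IP. Eef1a2, the elongation factor form of neurons and muscle, led with 3.70 (SE 0.41), whereas Eif5b (-1.84) and Eif4g1 (-0.83) were lower. Of 14 immediate early genes, which respond to activity and to tissue handling, 4 were higher (Jund 2.20, Egr1 1.89, Junb 1.22 and Fos 1.12). Btg2 was the 1 lower gene (-0.77). The share higher is close to the 23.8% over all genes, and the share lower is below the 20.6% over all genes. The 4 fell to 2 without the first untagged input or without the second tagged input. In the tagged IPs Fos stood at 18.5 and 18.3 CPM, against 17.9 and 15.1 in their inputs, and in the untagged IPs at 7.45 and 10.6, against 16.4 and 18.6. Its call was lost without the second untagged input (adjusted p = 0.0703, range from 0.00184 over the settings) and without the second tagged input (0.0531). Egr1 was not called without the first untagged input (adjusted p = 0.0501), nor Btg2 without that library or either tagged input (0.0552 to 0.0814).

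Long noncoding RNAs, which as a class encode no protein, were mostly lower. Of 13 tested, 11 were lower and none was higher, with a median of -1.88. The median in the tagged IP over input was 0.08 and that in the untagged IP over input 1.74, where 10 of 13 were higher. Meg3, an imprinted RNA of the nucleus, stood at 33.3 and 61.8 CPM in the tagged IPs, 44.5 and 45.5 in their inputs, 176 and 180 in the untagged IPs, and 56.5 and 32.5 in the untagged inputs. The tagged IPs and inputs overlapped and the untagged IPs lay above all other libraries, and the difference was -1.98 (SE 0.36, adjusted p = 0.000325). Vax2os (-2.01) and Snhg14 (-2.05) were close to it, and Malat1 (-1.88) and Neat1 (-2.06) were lower too. Over the whole annotation, 14 of 288 lincRNA genes (4.86%) were higher and 106 (36.8%) lower, and of 310 antisense genes 24 were higher and 84 lower, against 25.6% and 19.7% of 12308 protein-coding genes. The sources used here do not say whether counting used strand, so that reads of an antisense gene cannot be told apart from those of its partner.

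Genes of other inner retinal neurons were mostly lower. Amacrine genes had a median of -1.23, with 9 of 14 lower and none higher. Slc6a9, the glycine transporter of glycinergic amacrine cells, stood at 17.7 and 18.1 CPM in the tagged IPs, 126 and 124 in their inputs, 36.8 and 34.3 in the untagged IPs, and 94.5 and 112 in the untagged inputs (difference -1.25, SE 0.22, adjusted p = 0.000310). Tfap2b, an amacrine transcription factor, had a difference of -1.44 (SE 0.25), and Gad1, for GABA synthesis, -1.68. All 3 were lower in both IPs than in the inputs. Thus the HA-dependent value is the excess of 1 fall over another, and Slc6a9 fell by 2.80 on the log2 scale in the tagged retinas and by 1.55 in the untagged retinas. Bipolar cell genes had a median of -1.46, with 11 of 14 lower, among them Trpm1 (-2.39) and Grm6 (-1.81), the channel and glutamate receptor of ON bipolar cells, and with Car8 (1.28) higher.

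Rod genes had a median of -0.71, with 8 of 15 lower and none higher, and 5 lower without the first tagged input. Slc24a1 (-1.72), Cngb1 (-1.57) and Cnga1 (-1.33), of the rod exchanger and channel, were lower, but Gnat1, rod transducin (0.02), and Sag, arrestin (0.46), were not called. Gnat1 was lower in both IPs by about the same amount, with log2 ratios of -2.30 and -2.31. The summed level of the 15 rod genes was 16902 and 19338 CPM in the tagged IPs and 17080 and 15930 in the untagged IPs, which overlap, and was at least 52188 in every input. Of 18 genes shared by rods and cones 5 were higher, among them Rcvrn (1.24) and Guca1a (1.24), and 4 were lower. These shares are close to the 23.8% and 20.6% over all genes. In the tagged IP over input 2 of the 18 were higher and 12 lower. Rcvrn was called lower there (-0.55) and Guca1a was not called (0.22), and their untagged ratios were -1.79 and -1.01. The largest decrease among the 18 was that of Rp1 (-2.18), a long transcript of the photoreceptor axoneme. It was at 2586 and 2497 CPM in the untagged IPs against 330 and 293 in their inputs.

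Glial and non-neural genes were mostly depleted in both IPs. Of 15 genes of Müller glia and astrocytes 10 were lower and 2 higher, with a median of -0.90, and 6 were lower without the second tagged input. All 15 were lower in the tagged IP over input and 14 in the untagged IP over input. The higher ones were Clu (2.09, SE 0.23) and Dkk3 (1.31, SE 0.22), both secreted proteins. Clu stood at 167 and 172 CPM in the tagged IPs and 385 and 376 in their inputs, but at 31.6 and 32.5 in the untagged IPs and 264 and 345 in the untagged inputs, so that it was depleted with the tag and more depleted without it. Aqp4, the water channel of glial endfeet (-1.84), was lower. Beside the counts of the small microglial and vascular lists that follow, 23.8% of all genes were higher and 20.6% lower. Of 8 microglial genes 1 was higher and 1 lower (Csf1r, -0.97, not called without the second input of either genotype, adjusted p = 0.0535 and 0.0803), with a median of -0.04, although the medians of the terms were -3.09 and -2.14. Of 10 vascular genes 2 were higher (Rgs5 and Egfl7, the second not without the second untagged input, adjusted p = 0.161, range from 0.00360, or without the first tagged IP, 0.0619) and 3 lower (Kdr, Flt1 and Pecam1), and 5 were lower without the first untagged IP. Of 10 genes of the pigment epithelium 1 was lower (Rgr), with between 0 and 3 as single libraries were left out. None of 9 lens genes and none of 3 erythroid genes was called by edgeR or DESeq2, and 1 lens gene and 0 erythroid genes had an unadjusted p below 0.05 by edgeR, while DESeq2 gave no adjusted p for 2 lens genes. Lens genes summed to 163 CPM in the first untagged input and 16.5 in the second.

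**Figure D5:**
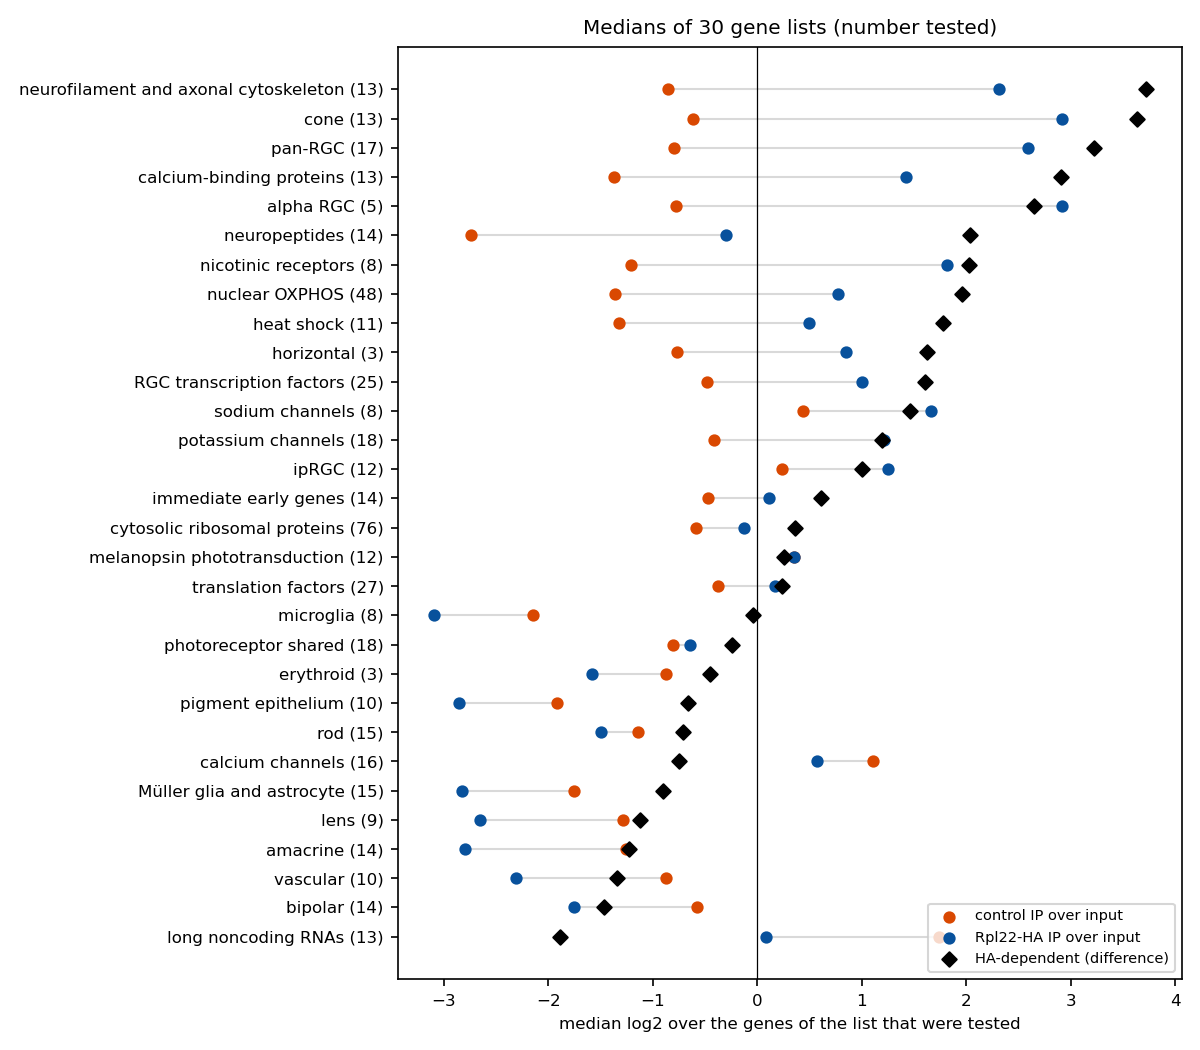
Medians over the tested genes of 30 lists, with the log2 ratio of IP to input in untagged retinas (orange) and in tagged retinas (blue) joined by a gray line, and the HA-dependent difference (black diamonds). The axonal cytoskeleton, cone and pan-RGC lists have the highest HA-dependent medians, at 3.72, 3.64 and 3.22, and the long noncoding RNAs the lowest, at -1.88.

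In all 15 genes with the largest decrease the untagged IP was called higher than its input, and in 7 of them the tagged IP was as well. Rrbp1, a ribosome-binding protein of the endoplasmic reticulum, stood at 18.2 and 21.3 CPM in the tagged IPs, 6.92 and 3.95 in their inputs, 117 and 160 in the untagged IPs, and 4.50 and 2.31 in the untagged inputs (difference -3.70, SE 0.43, adjusted p = 4.07e-06). Myh9, nonmuscle myosin (-2.99), and Mmp2, a matrix metalloproteinase (-3.03), were also higher in both IPs, with log2 ratios of 4.79 and 4.41 in the untagged IP over input. Kalrn, an exchange factor for small GTPases (-3.06), Lama5, a laminin chain (-3.04), and Ahnak, a large scaffold protein (-3.04), were higher in the untagged IP over input and were not called in the tagged IP over input. Megf10, an engulfment receptor, was the exception with a called fall in the tagged IPs, at 1.37 and 1.97 CPM against 8.95 and 8.48 in their inputs, while the untagged IPs were at 11.0 and 12.5 against 8.18 and 6.29 (-3.13, SE 0.40, adjusted p = 1.07e-05). Most of the other 8 genes of this set are uncharacterized or antisense transcripts, and Gm26917 varied between replicates, at 5.37 and 67.3 CPM in the tagged inputs, so that its difference of -3.40 became -0.64 (adjusted p = 0.275, range from 3.75e-33) without the second of them.

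Several genes were recovered strongly with no tag. Zfp638, a nuclear zinc-finger protein, stood at 2835 and 2979 CPM in the untagged IPs against a mean of 19.4 in their inputs, a log2 ratio of 7.23, and at 371 and 416 in the tagged IPs against a mean of 20.4, a ratio of 4.27. Mmp9, a matrix metalloproteinase, and Ylpm1, a nuclear protein, had untagged ratios of 7.80 and 7.22 and tagged ratios of 4.93 and 4.24. In all 3 the tagged IP alone was far above its input, and the HA-dependent differences were -2.96, -2.87 and -2.97. Ttn, Ston2 and Stard9, which have very long or long transcripts, were higher in both IPs and not called in the HA-dependent contrast, with differences from -1.93 to -1.91. At the other end, Nell1, a secreted protein, had 11.3 and 11.0 CPM in the tagged IPs against 5.85 and 7.32 in their inputs, and 0.287 and 0.282 in the untagged IPs against 6.55 and 7.05. Its HA-dependent difference of 5.29 (SE 0.49, adjusted p = 3.53e-07) was thus made up of 0.76 and -4.54. Cnp, an enzyme of myelinating glia, was not higher in the tagged IP over input (-0.62), yet its HA-dependent difference was 2.73 (SE 0.42).

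The levels could be set beside 4 further HA IPs of the study, from Opn4-Cre; Rpl22-HA mice with intact Brn3b, which entered no fit here and were normalized on their own. No untagged IP or input accompanied them in the files used here, so that the HA-dependent contrast could not be computed for them. Tbx20 was at 35.9 to 37.3 CPM in them, Eomes at 57.3 to 75.3 and Opn4 at 34.3 to 58.4. Sncg ran from 715 to 1178 CPM, Rbpms from 97.0 to 176, Pde6h from 411 to 880 and Opn1sw from 1465 to 2771. Slc6a9 had a mean of 17.4 CPM and Rrbp1 ran from 14.7 to 27.2. Prkcq stood at 47.1 CPM in 1 of these IPs and between 73.4 and 79.9 in the other 3. The ranges of Tbx20, Eomes, Opn4, Sncg, Rbpms, Pde6h and Opn1sw lay above every untagged IP and every input of the first experiment, on the scale of separately normalized tables.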

How the data were processed

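Libraries were made by the authors from IP and input RNA with a modified Smart-seq3 protocol, aligned to mm10 and quantified with the Smart-seq3 pipeline, per the study's methods. The deposited values are raw counts, whole numbers per Ensembl transcript with no normalization, with an annotation release that the sources used here do not name. Of 117860 transcripts, 116773 (99.1%) were matched to GENCODE M21 for chromosome, length and gene type, and 17 listed under 2 symbols were kept once. Transcripts of 1 gene share reads and were not summed.

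Tools were edgeR 4.0.16, DESeq2 1.42.0 and limma 3.58.1 under R 4.3.3. After filterByExpr, 45189 transcripts were scaled by TMM and fitted by group alone (glmQLFit, glmQLFTest, 4 residual degrees of freedom, common biological coefficient of variation 0.148). The Benjamini-Hochberg adjustment ran over all of these, and 13584 transcripts, 1 per autosomal symbol, were counted. CPM are normalized, SE is the log2 value over the root of F, and ratios of 1 lysate use a prior count of 2. The test was also run on counts simulated from the group means and common dispersion of these data, and no result here rests on that run. Replicates differed by more than sampling noise in every group. With 2 libraries per group, p-values set each difference against the variation between these samples, estimated with information shared across transcripts.

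IP and input of the same number come from 1 lysate, as the protocol states, and their deviations from the group means correlated at 0.0538 (tagged, Rpl22-HA) and 0.110 (untagged, control). Alternatives were other scalings, DESeq2, filters, transcript choices, a log2 threshold of 1, replicate blocks and leaving out each library. Genes were named by rule: 9 fixed genes, the 15 per direction with the largest called difference, a mean count of at least 50 and lysates that do not overlap, up to 4 per list with the smallest p, and the largest changes of the control IP or of both IPs. Other list members were named after their values were seen, and some genes that the rule names are not reported here. The contrast, the lists and the rules were chosen with earlier results of these data known.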

Additional observations from a re-analysis of the deposited data

Results flagged for a closer look

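For 11 of the 30 genes with the largest HA-dependent difference, the ratio of IP to input was called in opposite directions with and without the tag. These genes were chosen for a called difference, so that the test of the difference adds nothing here, and over all 13584 genes 1185 (8.72%) had ratios called in opposite directions by edgeR. In 10 of them the ratio was up in the tagged retinas and down in the untagged retinas. The HA-dependent log2 differences were 6.57 for Prkcq, 6.36 for Spp1, 5.98 for Ramp1, 5.77 for Clca1, 5.74 for Sncg, 5.65 for Mgst3, 5.65 for Rgs4, 5.50 for Agr2, 5.47 for Tmem163 and 5.41 for Eomes. In Megf10, at -3.13, the ratio was down in the tagged retinas and up in the untagged retinas. Genotype and sex cannot be told apart in these comparisons.

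In the 4 further HA IPs, 1 library stood apart for Prkcq, with a gap to the nearest other library that made up 0.840 of the whole range on the scale of log2(CPM + 1), and 1 stood apart for Rbpms, with 0.870. Both ratios are past the 95% critical value of Dixon's test for 4 samples, which 6 of the 154 genes looked at in these libraries passed, these 2 included, and chance flags about 1 in 20 groups.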

How the results depend on the processing

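Among 20 alternatives, the HA-dependent counts stayed within 1.5 times their values except where a library was left out. Genes higher numbered 2619 to 3403 under the 12 other settings and 2283 to 3153 when single libraries were left out, and genes lower 2316 to 3156 and 1840 (without the first tagged input) to 3658 (without the first untagged IP). In the tagged IP over input, genes higher fell to 2324 with DESeq2 and to 1916 with an absolute log2 above 1, genes lower rose to 2612 with upper-quartile scaling and fell to 973 with that threshold, and leaving out libraries gave 1877 to 3709 higher and 921 to 2723 lower. In the untagged IP over input, genes lower fell to 2109 with the threshold, and leaving out libraries gave 2198 to 3473 lower and 2797 to 4138 higher. Fewer samples and, for the threshold, its own construction lower such counts, and otherwise the cause was not tested. Higher genes made up 53.7% of HA-dependent calls, 48.9% to 51.9% under other scalings, and 44.4% to 58.0% without single libraries.

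With the lysate as a replicate block, so that each IP was paired with its own input, 3330 genes were higher and 2958 lower, of which 3200 and 2760 were also called without it, and no count moved by over 1.5 times. None of the called genes named by rule was lost and 4 more were called. For Nmrk1, whose difference was -3.33, choosing the transcript on the inputs gave 0.14 (adjusted p = 0.825), a different transcript of the gene. Over all named genes and alternatives, 2972 values kept direction and call, 42 lost the call, 41 gained it, 1 reversed, and 8 that were not called changed sign. Leaving out the second untagged input left only the first, the shallowest library, with 2332612 counts, in that group. Then 10 of the genes named by rule lost their call, among them Opn4, Pou4f2, Adcyap1, Tnni3, Egfl7, Fos and Gm37941. The difference of Tnni3 was still 4.98 and that of Pou4f2 was 3.61. List members outside that rule were not followed through the alternatives one by one.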
